A study of Mus musculus with 31 samples.

Results

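The 8 genes described here encode cytokines of the LIF and oncostatin M type, their receptor chains, and the 3 TGF-beta ligands, signals best known in the mammary gland from involution, the regression of the gland after weaning. They were chosen by gene symbol (Lif, Osm, Lifr, Osmr, Il6st, Tgfb1, Tgfb2 and Tgfb3), and all 8 were found among the 22609 genes of both deposited FPKM tables. Poly(A) RNA of mouse mammary tissue, taken without lymph nodes, was sequenced from pregnant mice on day 6 and from mice at parturition, no later than 12 hours after delivery. All mice were of mixed 129SV::FVB/N::C57BL/6 background, and no ages are given. The 6 genotypes differ in how many working alleles of Stat5a and Stat5b they keep, neighbouring genes for transcription factors activated by prolactin. AABB mice carry all 4 copies (labelled wild type, and per the design text also Stat5abfl/fl mice without Cre). Null mice (Stat5abfl/fl;MMTV-Cre) lost both genes where the MMTV promoter drives Cre, which includes mammary epithelium, and keep them in cells without Cre. The remaining genotypes carry their alleles in every cell: BB is Stat5a-/-, AB is Stat5ab+/null, B (Stat5abnull/Stat5a-) keeps a single Stat5b allele, and A (Stat5abnull/Stat5b-) a single Stat5a allele.

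LIF and oncostatin M bind heterodimers that share gp130, the product of Il6st: LIF uses the LIF receptor chain (Lifr), and mouse oncostatin M uses mainly its own chain (Osmr). Both activate STAT3 through Janus kinases, and in mammary epithelium LIF and STAT3 are known for starting the cell death of involution, at the stage when STAT5 activity falls. TGF-beta ligands are secreted in a latent form, signal through type I and type II receptor kinases to SMAD proteins, and restrain alveolar growth. TGF-beta 3 is known for its induction by milk stasis.

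The labels list 18 samples on day 6 (3 per genotype) and 13 at parturition (3 for B, 2 for each other genotype). Each genotype has a single column in the table of its stage, taken as the authors' mean over the samples, so the spread between samples is unknown and nothing below was tested. FPKM, the fragments of a gene relative to its transcript length and to all mapped fragments, already allows for length, so levels can be set side by side between genes. Levels are given as scaled FPKM, with the 6 columns of a stage brought to a common scale by their median ratio over 11733 genes on day 6 and 10864 at parturition. Read depth is unknown. FPKM column sums ranged from 432576 to 1190588, and 10 milk protein genes took 62.1% of the FPKM in AABB at parturition against 0.485% in Null. The summed level of 11 luminal epithelial markers was 3029 in AABB and 1386 in Null at parturition, so epithelial RNA was present in both. In bulk tissue, fewer cells of a type and less RNA per cell cannot be told apart. Stat5a was lowest in BB at both stages (3.67 and 4.30), but the column labelled B still held Stat5a at 12.5 and 8.60 and the column labelled A held Stat5b at 10.6 and 10.3. Null held Stat5a at 13.6 and 6.96 and Stat5b at 9.04 and 7.65. The gene-level value does not separate transcript of a disrupted allele. Why Stat5a was higher in B than in BB was not tested. In B and A the sample tags repeat a number with L or R after it, whose meaning the labels do not give.

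The genes of the 2 cytokines lie next to each other in RefSeq (GRCm38.p6) on chromosome 11, with 0 genes between Lif and Osm, and Lifr and Osmr are neighbours on chromosome 15, with 0 protein-coding and 3 other genes between them. The promoter windows of the receptor chains are shown because these 3 genes stood above AABB in all other genotypes on day 6, while at parturition Lifr did not. Each line gives the 250 bases before an annotated start from RefSeq, 5′ to 3′ on the gene's strand, with capitals marking the GC box GGGCGG or its complement CCGCCC. The windows are Osmr at chr15:6874314-6874563 (minus strand), Lifr at chr15:7129322-7129571 (plus strand, the first of 2 annotated starts) and Il6st at chr13:112463820-112464069 (plus strand), all GRCm38.p6.
Osmr: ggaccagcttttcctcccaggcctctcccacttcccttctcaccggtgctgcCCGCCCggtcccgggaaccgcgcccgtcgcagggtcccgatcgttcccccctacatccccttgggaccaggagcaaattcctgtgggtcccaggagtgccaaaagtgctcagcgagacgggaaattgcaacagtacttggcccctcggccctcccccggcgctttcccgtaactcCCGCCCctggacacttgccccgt
Lifr: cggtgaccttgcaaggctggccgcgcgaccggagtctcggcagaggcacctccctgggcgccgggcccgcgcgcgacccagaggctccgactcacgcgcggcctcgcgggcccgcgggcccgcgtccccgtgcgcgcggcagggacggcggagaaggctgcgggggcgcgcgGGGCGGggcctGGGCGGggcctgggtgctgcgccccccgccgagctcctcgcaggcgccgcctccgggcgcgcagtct
Il6st: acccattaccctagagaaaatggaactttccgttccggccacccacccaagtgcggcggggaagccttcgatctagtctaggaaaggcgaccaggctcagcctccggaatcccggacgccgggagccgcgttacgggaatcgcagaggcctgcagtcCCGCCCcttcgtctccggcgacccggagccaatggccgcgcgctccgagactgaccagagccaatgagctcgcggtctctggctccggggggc
The Osmr and Lifr windows each held 2 GC boxes and the Il6st window 1, and 32.7% of all 32851 RefSeq windows of this length held at least 1. The motif TTCNNNGAA, the letters that STAT proteins are known to bind, was searched on both strands (it reads the same on each) and was in 0 of the 7 windows matched for Lif, Lifr, Osmr, Il6st, Tgfb1 and Tgfb2, against 7.02% of all windows. Osm and Tgfb3 were not matched. The AP-1 letters TGANTCA, which also read the same on both strands, were in the Lif window alone, at 1 place, and in 6.75% of all windows. These are matches of letters in a short window and not binding sites.

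Lif, the cytokine gene, was weakly expressed and stood out at parturition, when AABB had the lowest level of the 6 genotypes. On day 6 its levels were 1.45 in Null, 1.58 in B, 1.63 in A, 1.21 in BB, 1.42 in AB and 1.41 in AABB, a span of only 1.35-fold. At parturition they were 2.05, 2.44, 3.25, 1.65, 2.39 and 0.401 in the same order. Thus all 5 genotypes with fewer alleles lay between 4.12 and 8.09 times AABB, and the order among the 5 has no measure of spread. On the scale used for counting, the log2 ratio of scaled FPKM + 1, these differences were 1.12 in Null, 1.30 in B, 1.60 in A, 0.92 in BB and 1.28 in AB. The added 1 understates differences of genes as low as Lif, and with 0.1 in its place the same ratios were 1.81 to 2.74. All 5 ratios use the same AABB column, taken as a mean of 2 samples.

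Osm, the oncostatin M gene, was below 1 FPKM in all 12 columns and so entered no comparison. It was highest in the columns labelled B and A at both stages, at 0.592 and 0.446 on day 6 and 0.348 and 0.304 at parturition. The other columns were between 0.171 and 0.271 on day 6 and between 0.0619 and 0.174 at parturition. Oncostatin M is made mainly by white blood cells. Of the 11 macrophage markers found, 6 in B and 5 in A were at least 2-fold above AABB on day 6, and 11 and 11 at parturition, with none at 0. The counts were 5 in BB and 5 in AB on day 6 and 9 and 9 at parturition, where Osm was not high, and in Null 0 and 7. At parturition macrophage markers summed to 1102 in B, 1070 in A, 624 in BB, 554 in AB, 503 in Null and 222 in AABB. On day 6 the sums were 1464, 1255, 1371, 1331, 785 and 1072 in the same order. B and A thus stood above all others at parturition only. Of the 7 B and plasma cell markers found, 7 in B and 7 in A were at least 2-fold above AABB on day 6, with medians of 4.08 and 3.76. At parturition 1 of these markers passed the filter, and it was lower than in AABB in B (−1.47) and in A (−2.92). The 9 neutrophil markers found were highest in sum in A and B at both stages. On day 6 they summed to 35.2 in A, 33.1 in B and 6.98 to 29.8 in the others. At parturition the sums were 33.7 in A, 24.9 in B and 9.01 to 21.6 in the others. The part of such cells in the Osm values was not tested. Lif exceeded Osm in every column, by 2.67-fold (B on day 6) to 26.7-fold (BB at parturition).

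**Figure D1:**
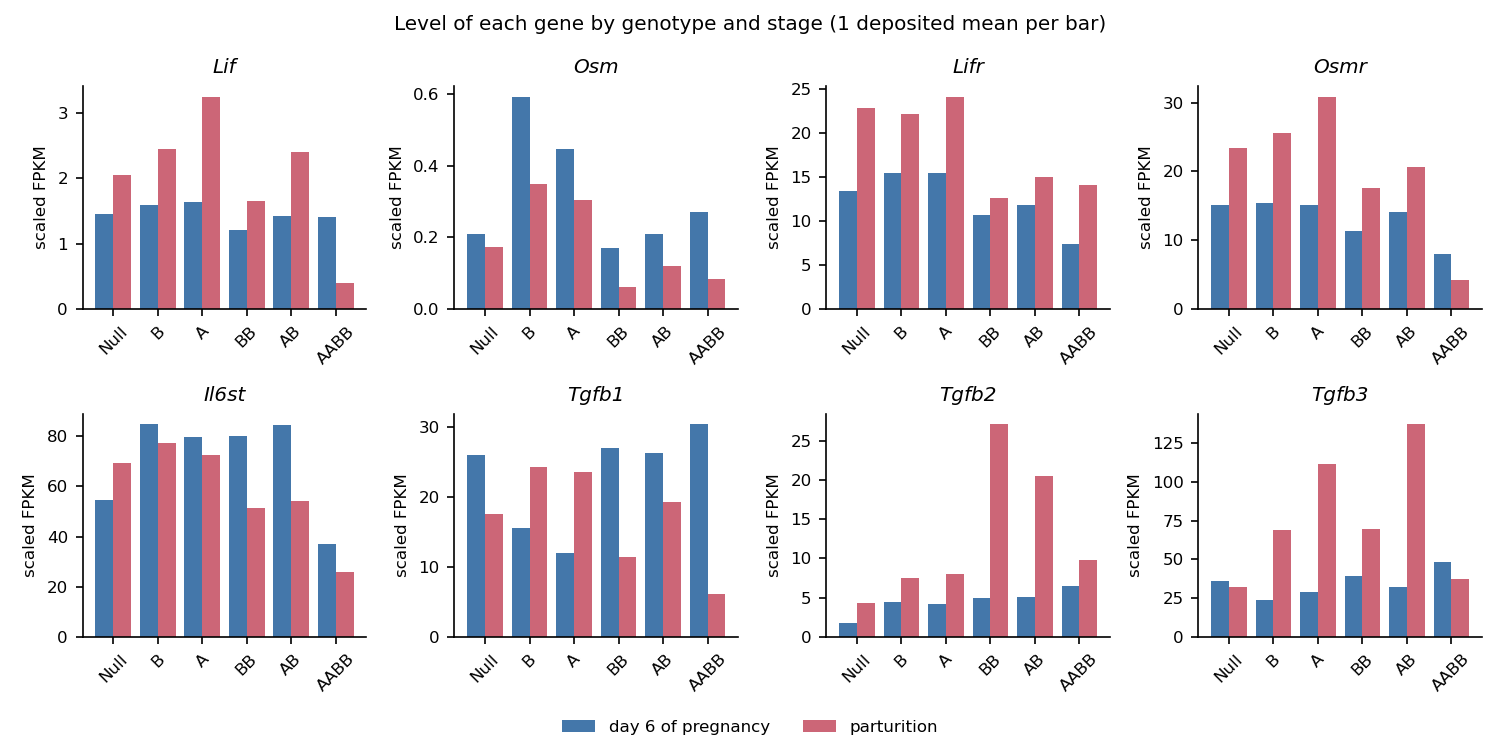
Scaled FPKM (vertical axes, each from 0 and with its own range) of the 8 genes by genotype, in blue on day 6 of pregnancy and in red at parturition; each bar is 1 deposited mean without error. At parturition AABB is the lowest column for Lif (0.401), Osmr (4.27), Il6st (25.7) and Tgfb1 (6.05), and Tgfb2 is highest in BB (27.1) and AB (20.5).

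The receptor genes were lowest in AABB on day 6. Il6st, encoding the shared chain gp130, was at 37.2 in AABB, 54.6 in Null, 84.8 in B, 79.7 in A, 80.0 in BB and 84.6 in AB. The 4 genotypes with 1 or 2 germline copies stood close together, at 2.14 to 2.28 times AABB, and Null, at 1.47 times, was between them and AABB. Lifr was at 7.35 in AABB, 13.3 in Null, 15.4 in B, 15.4 in A, 10.7 in BB and 11.9 in AB. Osmr was at 7.98, 15.1, 15.5, 15.1, 11.3 and 14.0 in the same order. For these 2 receptor chains the columns with 0 or 1 copy were the 3 highest, and BB and AB lay between them and AABB.

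Counting genes at least 2-fold apart, the share of all 13367 genes called higher than AABB on day 6 was 7.56% in B, 7.01% in A, 5.12% in BB and 6.78% in AB. The balance of these calls depends on the scaling: higher calls were 58.7% of all calls in BB and 57.5% in AB but 46.2% and 40.4% without scaling, 51.5% and 40.0% in Null, and 59.3% in B and 55.9% in A but 80.4% and 76.4% with columns scaled to total FPKM without milk protein genes. Of the 7 members compared, Il6st alone was called higher in B, A, BB and AB (log2 ratios 1.17, 1.08, 1.08 and 1.16) and none in Null. Lifr came just short of the threshold in B (0.98) and A (0.97), and with upper-quartile scaling passed it, at 1.06 and 1.08. Without scaling, Il6st fell just short in BB (0.97) and AB (0.98). The Il6st values stand beside fibroblast and matrix markers, of which 12 of 12 were found and none was at 0. The summed level of those markers was 2348 in AABB, 2137 in Null, 5233 in B, 4928 in A, 9948 in BB and 9264 in AB. Basal and myoepithelial markers summed to 420 in AABB, 545 in Null, 842 in B, 942 in A, 826 in BB and 811 in AB. The fibroblast sum was lower in Null than in AABB, unlike Il6st and the basal sum. By list median Null was slightly above AABB (log2 ratio 0.16), with 2 of the 12 fibroblast markers called higher and 0 lower. The parts of fibroblast and of basal cell RNA in the Il6st values were not tested.

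At parturition Osmr separated from Lifr. Osmr was at 4.27 in AABB and at 23.4 in Null, 25.6 in B, 30.9 in A, 17.6 in BB and 20.6 in AB, which is 4.12 to 7.23 times AABB. Il6st was at 25.7 in AABB and at 69.6, 77.5, 72.5, 51.6 and 54.2 in the same order, 2.01 to 3.02 times AABB. Lifr was at 14.1 in AABB and at 22.8, 22.1, 24.1, 12.6 and 15.0, so BB and AB were near AABB and only Null, B and A stood above it, by 1.57 to 1.71 times. Without scaling the Lifr log2 ratios of these 3 passed 2-fold, at 1.10, 1.09 and 1.17. The ratio of Osmr to Lifr within a column does not depend on scaling. It was between 0.978 and 1.18 in all 6 columns on day 6, and at parturition 1.03 in Null, 1.16 in B, 1.28 in A, 1.39 in BB, 1.37 in AB and 0.303 in AABB. The AABB column at parturition was thus the lowest of the 12.

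The TGF-beta ligand genes went the other way on day 6, with AABB the highest column for each. Tgfb1, encoding the most widely expressed ligand, was at 30.4 in AABB, 26.1 in Null, 27.0 in BB and 26.3 in AB, but at 15.5 in B and 12.0 in A. Tgfb3 was at 48.1 in AABB, 36.3 in Null, 24.0 in B, 28.6 in A, 39.3 in BB and 32.2 in AB. Tgfb2, the weakest of the 3, was at 6.46 in AABB, between 4.24 and 5.03 in B, A, BB and AB, and at 1.78 in Null. The low columns were therefore B and A for Tgfb1 and Tgfb3, and Null for Tgfb2. Called lower than AABB were Tgfb2 in Null (log2 ratio −1.42, where 2.09% of all genes were called lower) and Tgfb1 in A (−1.28, beside 5.54%). Tgfb1 in B was at −0.93 and Tgfb3 in B at −0.98. Luminal markers also summed highest in AABB on day 6, at 2180. They were at 1635 in Null, 1362 in B, 1264 in A, 1423 in BB and 964 in AB. Adipocyte markers summed to 50224 in Null, 21950 in AABB and between 23624 and 31148 in the others. The parts of luminal and adipocyte RNA in the ligand values were not tested.

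At parturition the 3 ligand genes differed from each other in their order of genotypes. Tgfb1 was lowest in AABB, at 6.05, and stood at 17.6 in Null, 24.4 in B, 23.6 in A, 11.4 in BB and 19.4 in AB. Tgfb3 was the most abundant ligand transcript, at 137 in AB, 112 in A, 69.7 in BB and 69.3 in B, while AABB (37.5) and Null (32.0) were the 2 lowest. Tgfb2 peaked in the genotypes with 2 copies, at 27.1 in BB and 20.5 in AB, against 9.82 in AABB, 8.07 in A, 7.53 in B and 4.31 in Null. Neither Tgfb2 nor Tgfb3 followed the number of alleles from 0 to 4: for Tgfb3 all 4 genotypes between lay above both Null and AABB, and for Tgfb2 BB and AB did. The 3 ligands together summed to between 53.4 and 54.0 in AABB and Null and to between 101 and 177 in the others.

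The share of each ligand in their summed FPKM is also free of scaling, and its order over genotypes was not that of the levels. Tgfb1 made up 32.7% in Null, 24.1% in B and 16.5% in A at parturition, and between 10.5% and 11.3% in BB, AB and AABB. On day 6 its share was between 26.7% (A) and 41.4% (AB). Tgfb2 took 25.1% in BB, 18.4% in AABB and 11.6% in AB at parturition, and between 5.62% and 7.99% in the other 3 columns. Tgfb3 was the largest share in all 12 columns, from 50.7% (AB on day 6) to 77.9% (A at parturition).

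**Figure D2:**
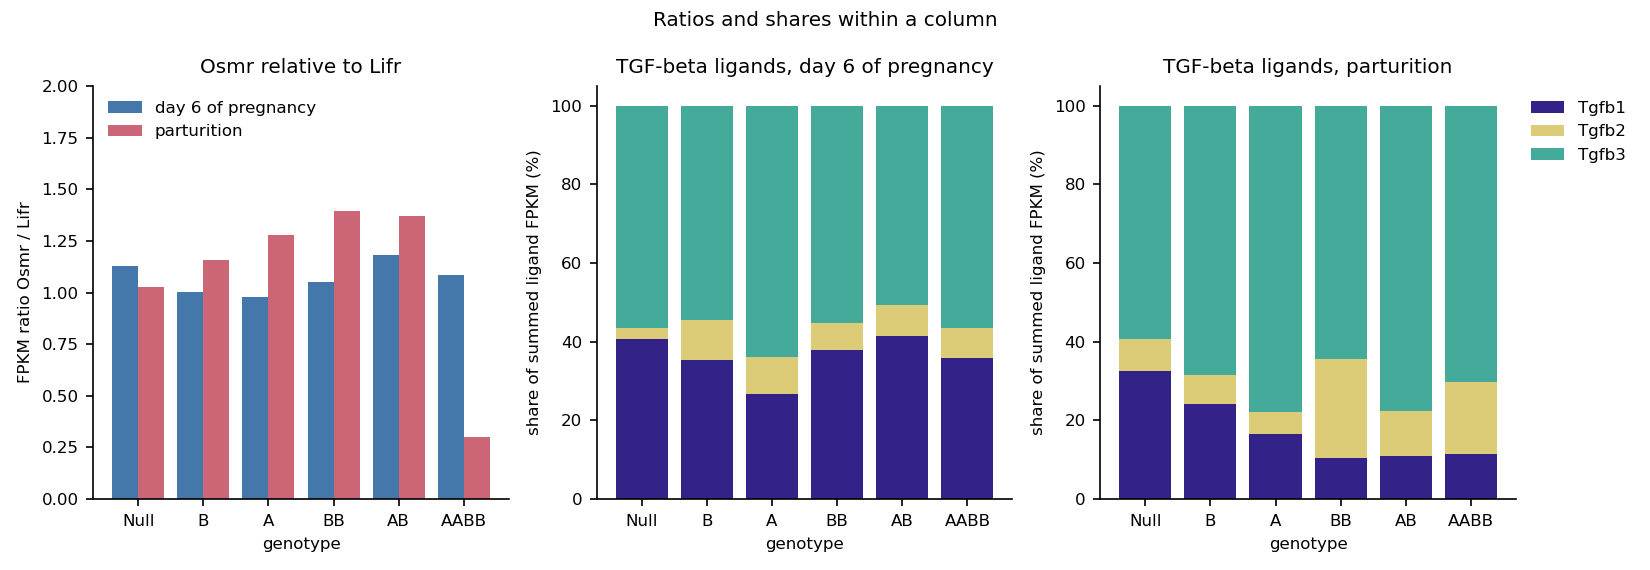
Quantities computed within a column of deposited FPKM: the ratio of Osmr to Lifr by genotype (left) and the percent of Tgfb1, Tgfb2 and Tgfb3 in their sum on day 6 (middle) and at parturition (right). The Osmr to Lifr ratio is 0.303 in AABB at parturition and between 0.978 and 1.39 in the other 11 columns, and the Tgfb1 share at parturition falls into 32.7% in Null and at most 11.3% in BB, AB and AABB.

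Against AABB at parturition, higher calls took 19.1% of all 13061 genes in Null, 18.2% in B, 17.3% in A, 8.07% in BB and 10.2% in AB. Higher calls were at most 65.2% (AB) of all calls in these 5 comparisons, and without scaling between 80.1% (BB) and 85.6% (B). Of the 7 members, 4 were higher in Null and in B (Lif, Osmr, Il6st and Tgfb1), 5 in A and in AB (the same genes and Tgfb3) and 2 in BB (Osmr and Tgfb2). The log2 ratios of Osmr were 2.21 in Null, 2.34 in B, 2.60 in A, 1.82 in BB and 2.04 in AB. Those of Tgfb1 were 1.40, 1.85, 1.80, 0.81 and 1.53 in the same order. A single member was lower, Tgfb2 in Null at −1.03, where 10.7% of all genes were, and without scaling it was at −0.61. Tgfb3 in Null was at −0.22, and without scaling at 0.24, so its direction depended on the scaling. The direction of Tgfb2 in B (−0.34) and A (−0.26) also turned without scaling, to 0.11 and 0.17, as did that of Lifr in BB (−0.15 and 0.14). These 4 directions also turned with scaling to total FPKM without milk protein genes. Leaving out scaling moved the median of all genes in these 5 comparisons from between 0.04 and 0.11 to between 0.23 and 0.53.

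**Figure D3:**
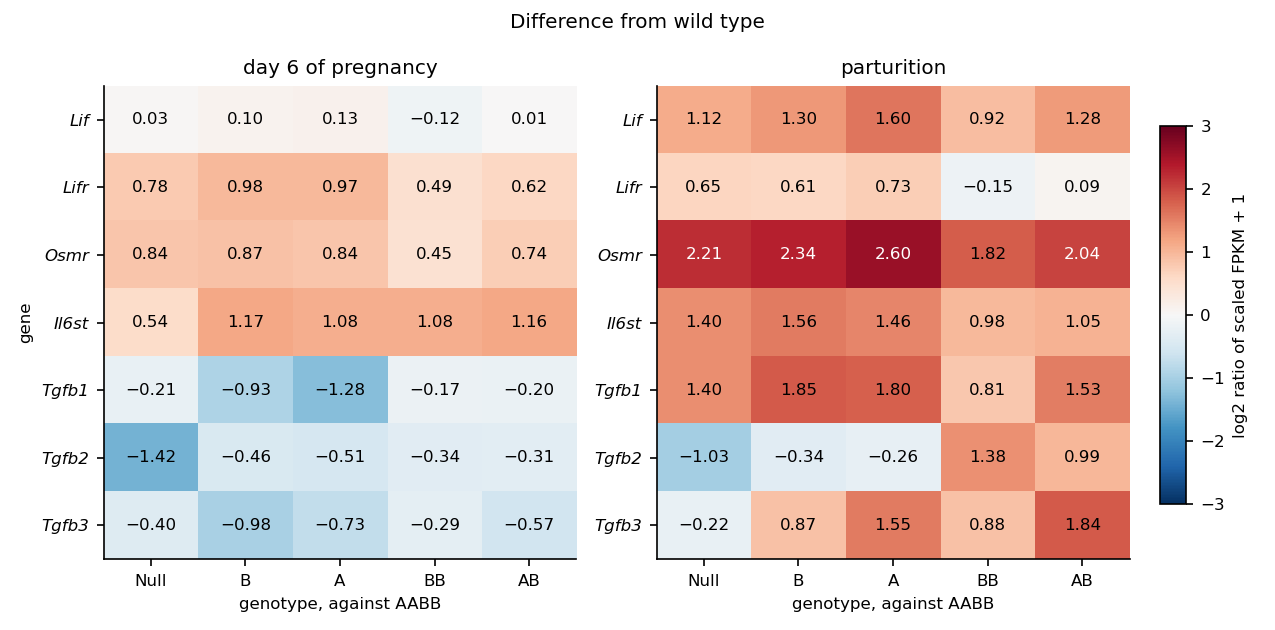
Log2 ratio of scaled FPKM + 1 to AABB (colour and printed value, red higher and blue lower) for the 7 genes compared, by genotype, on day 6 of pregnancy (left) and at parturition (right). The Osmr row runs from 1.82 to 2.60 at parturition and the Tgfb2 row from −1.03 in Null to 1.38 in BB; the 5 columns of a panel share the same AABB values.

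Markers of stromal cells were also higher than in AABB at parturition. At parturition all 12 adipocyte and all 12 fibroblast and matrix markers found were at least 2-fold higher in Null, and none was at 0 in any column. The summed adipocyte level was 4969 in AABB, 31639 in Null, 21412 in B, 23220 in A, 9985 in BB and 8808 in AB, and the summed fibroblast level was 445 in AABB and between 1886 and 2614 in the others. The 9 endothelial markers summed to 115 in AABB and to between 176 and 311 in the others. List medians of the log2 ratios were 2.13 to 2.36 for fibroblasts and 1.12 to 2.74 for adipocytes. The Osmr ratios of 1.82 to 2.60 spanned the fibroblast medians, while those of Il6st (0.98 to 1.56), Lif (0.92 to 1.60) and Lifr (−0.15 to 0.73) were below them. Osmr was highest in A (2.60), where the fibroblast median was 2.13. The fibroblast medians lay close together, and their order over genotypes has no measure of spread. Macrophage medians were 1.24 in Null, 2.32 in B, 2.07 in A, 1.46 in BB and 1.67 in AB. Tgfb1 ratios were 1.40, 1.85, 1.80, 0.81 and 1.53 in the same order. The part of stromal and macrophage RNA in these values was not tested. Tgfb2 differed in another order than these markers: it was highest in BB and AB, as were the 9 basal and myoepithelial markers, whose summed levels were 2166 in BB, 1512 in AB, 1186 in B, 990 in A, 913 in AABB and 599 in Null. On day 6 the order was another: their summed level was lowest in AABB (420), where Tgfb2 was highest, and between 545 and 942 in the other genotypes. None of the 9 was at 0. Luminal markers at parturition summed to 3409 in BB, 3029 in AABB and 2980 in AB. A, B and Null were at 2614, 2508 and 1386. On day 6 the luminal sum was highest in AABB (2180), like Tgfb2, but Null was next (1635), where Tgfb2 was lowest. The parts of basal and of luminal RNA in the Tgfb2 values were not tested. Skeletal muscle markers, 9 of 9 found, set AB on day 6 apart (median log2 ratio 5.85), and at parturition their medians were 2.99 to 3.59 in Null, B and A against −3.83 in BB and −3.49 in AB; their part in the members' values was not tested either.

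**Figure D4:**
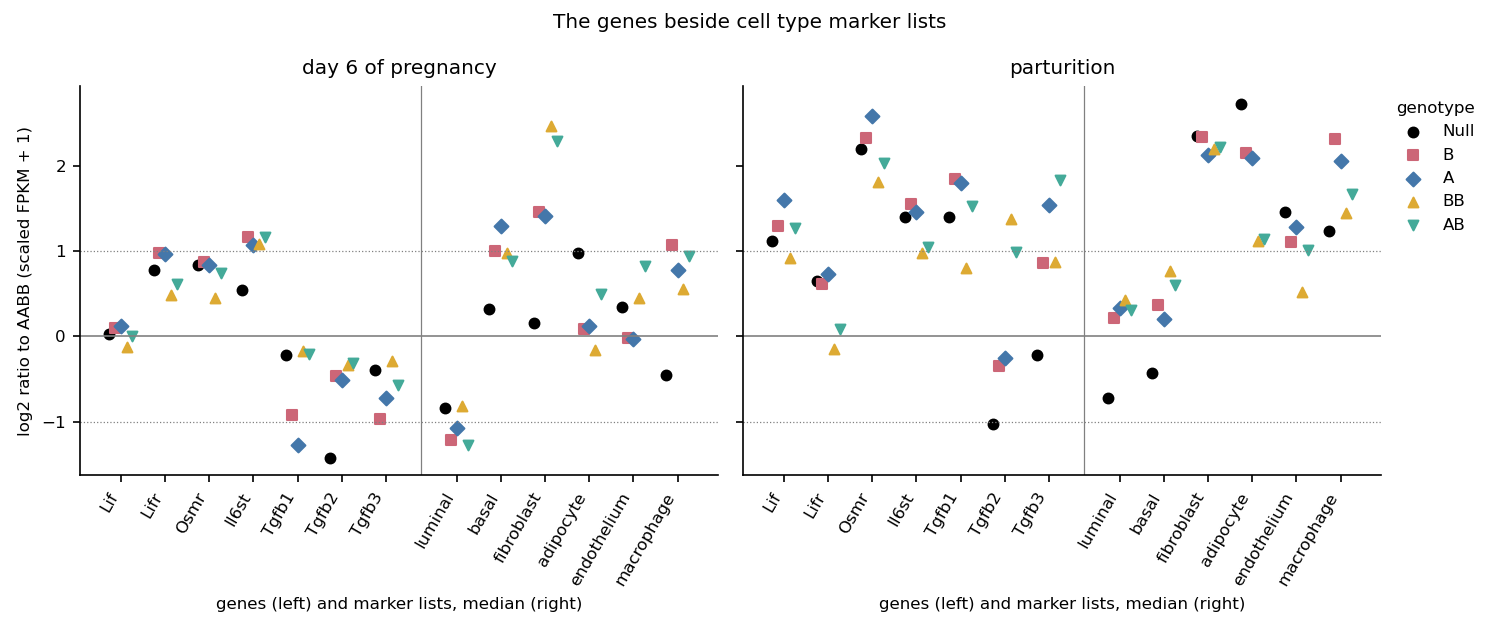
Log2 ratios to AABB of the 7 genes (left of the line in each panel) and the median ratios of 6 cell type marker lists (right of it), with 1 symbol per genotype, on day 6 and at parturition; dotted lines mark 2-fold. At parturition the fibroblast medians (2.13 to 2.36) lie within the range of the Osmr ratios (1.82 to 2.60), and the order of genotypes has no measure of spread. The Lifr ratios (−0.15 to 0.73) cover a lower range.

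Comparisons that leave AABB out set the allele numbers against each other directly. Between the columns labelled A and B, where few genes differed (0.382% of all genes in either direction on day 6 and 0.704% at parturition), 0 of the 7 members were called, and the widest log2 ratio was 0.68 for Tgfb3 at parturition. Between AB and BB 0 were called as well, beside 2.72% and 1.78% of all genes, with Tgfb3 at 0.97 and Tgfb1 at 0.72 at parturition. On day 6 the counts were also 0 for BB against B (beside 6.46% of all genes) and for B against Null (beside 10.4%). With 2 Stat5b copies against 1 (BB against B) at parturition, Tgfb2 was higher (1.72, beside 3.25% of all genes) and Tgfb1 lower (−1.04, beside 4.62%). With 1 copy against none at parturition, Tgfb3 was higher in B (1.09, beside 2.72%) and in A (1.77, beside 3.51%). On day 6 Tgfb1 was lower in A than in Null (−1.06, beside 4.67%), and without scaling no member was. Of all genes called there, 56.6% were higher in A, and 70.3% without scaling. For BB against B the higher share was 41.3% at parturition and 22.1% without scaling. Comparisons of Null with A and B also differ in where the alleles were lost, since Null lost them only where MMTV-Cre acts.

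The stages were set side by side with all 12 columns scaled together, and because the 2 tables were prepared separately these ratios are descriptions. In AABB, Tgfb1 went from 28.8 on day 6 to 6.29 at parturition (log2 ratio −2.03) and was the only member called, beside 15.6% of all genes that were lower. Higher genes were 41.7% of all calls in AABB here, and 17.2% without scaling. In A the same gene was higher at parturition, 24.6 against 11.5 (1.03, beside 4.79%), and without scaling came to 0.97. In A, Osmr (1.09) and Tgfb3 (2.04) were also called higher. Tgfb3 was higher at parturition in B (1.60, beside 3.67%) and AB (2.15, beside 6.13%) too. Tgfb2 was higher in BB, at 28.4 against 4.77 (2.35, beside 5.90%), in AB (1.92) and, at the threshold, in Null (1.00, beside 3.28%). Tgfb1 was lower at parturition in BB (−1.07, beside 8.74%). Osmr in AABB was at 4.44 against 7.57 (−0.66) and at −1.08 without scaling.

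The rest of the pathway was read from 6 lists of genes, beside 19.1% of all genes called higher and 10.7% called lower in Null at parturition, with a median log2 ratio of 0.10 over all genes. Among 14 other genes of the IL6 cytokine family, 8 passed the filter at parturition. Cntfr, the ciliary neurotrophic factor receptor chain, was higher in Null than in AABB (9.10 against 0.173), and Il6ra, the interleukin 6 receptor chain, was lower (8.01 against 17.3). Clcf1 and Il27ra, a cytokine and a receptor chain of the family, had log2 ratios of 0.87 and 0.62. The list median was 0.24 with 1 gene higher and 1 lower. Of the 10 JAK-STAT3 transducers and inhibitors, 3 were higher in Null at parturition and 0 lower (median 0.42). They included Ptpn11, a phosphatase gene (40.1 against 18.5), and Socs3, the feedback inhibitor induced by STAT3 (5.20 against 1.80). Pias3, an inhibitor of STAT3, was at 0.90. Socs3 was lowest in AABB at parturition, with 9.21 in B, 10.7 in A, 6.17 in BB and 7.34 in AB. Stat3 itself was at 38.1 in AABB, 41.6 in Null, 70.8 in B, 80.0 in A, 48.7 in BB and 77.1 in AB.

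The 30 STAT3-linked and early involution genes did not move as one. At parturition 5 were higher and 9 lower in Null (median −0.06), and 9 higher and 7 lower in A (median 0.40). Igfbp5, encoding the IGF-binding protein abundant in the involuting gland, was at 73.8 in AABB and at 348 in Null, 843 in B, 1214 in A, 735 in BB and 912 in AB. The acute-phase genes of the list were split. Lcn2 was lower in Null, at 227 against 4338, as were Lbp, at 13.5 against 206, and Saa1 and Saa2, at 1.54 and 1.38 against 1018 and 965. Hp, encoding haptoglobin, was higher, at 159 against 24.0, while Lrg1 and Orm1 had log2 ratios of 0.18 and −0.15 and Orm2 was lower, at 2.37 against 18.4; these 4 genes were chosen after their values were seen. Saa1 and Saa2 are near-identical copies and their separate levels are uncertain. BB and AB were within 2-fold of AABB for Lcn2, Lbp, Saa1 and Saa2. Cebpd, a STAT3 target gene, was at 7.17 in Null and 17.5 in AABB. On day 6, of the 29 genes compared, 0 were higher and 1 was lower in Null, 0 and 5 in B, 0 and 8 in A, 1 and 2 in BB, and 2 and 2 in AB. Of all 13367 genes, 279 were lower in Null (2.09%), 693 in B, 740 in A (5.54%), 481 in BB and 670 in AB. Those higher were 296, 1011, 937, 684 and 906 in the same order.

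Among TGF-beta receptors and SMADs, 4 of 16 were higher in Null at parturition and 0 lower, as many as in B, in A and in AB, and 0 were called in BB. The shares of all genes called higher were 19.1% in Null, 18.2% in B, 17.3% in A, 10.2% in AB and 8.07% in BB. In Null they were Eng, the co-receptor of endothelium (46.3 against 11.9), Tgfbr3, encoding betaglycan (36.2 against 13.1), and the inhibitors Smad6 (3.39 against 0.726) and Ski (34.6 against 13.7). The signalling receptors differed little at that stage, with log2 ratios between −0.20 and 0.26 for Tgfbr1 and between 0.25 and 0.77 for Tgfbr2. On day 6 Tgfbr2 was at 40.4 in AABB, 44.6 in Null, 81.4 in B, 74.8 in A, 98.5 in BB and 95.5 in AB. Tgfbr1 was at 7.52, 7.91, 15.7, 16.4, 14.4 and 13.9 in the same order. Both had AABB and Null low and the other 4 columns high, and the same 4 columns were the highest for Il6st.

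Genes for latent TGF-beta binding and activation were higher at parturition in 8 of 15 cases in Null, 11 in B, 11 in A, 6 in BB and 10 in AB, and none was lower. Of all genes, 19.1%, 18.2%, 17.3%, 8.07% and 10.2% were higher in the same order. They included Thbs1, encoding the activator thrombospondin 1 (46.8 in Null against 7.10), Fbn1 (29.7 against 4.26), Ltbp4 (25.4 against 4.34) and Ltbp2 (11.8 against 1.76), which encode matrix proteins that hold the latent ligand. The list medians were 0.80 in BB and 1.22 to 1.62 in the others. Of 18 TGF-beta-responsive genes, 11 were higher and 1 lower in Null (median 1.21). Col1a1 was at 329 against 39.0, Fn1 at 64.4 against 7.78, Tgfbi at 33.4 against 5.17, and the cell cycle inhibitor gene Cdkn2b at 6.00 against 0.698. Col1a1 and Fn1 also stand in the fibroblast marker list. On day 6, 0 of the 18 were called in Null (median −0.05).

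Genes whose pattern over the 12 columns was most like each member were found by Pearson correlation of log2 levels centred within each stage, among 11902 genes; the columns share their tissue mix and each AABB column. For Il6st they were Heg1 (r = 0.99), Vezf1 (0.98) and Scara3 (0.98), and for Osmr Cxcl12 (0.98), Athl1 (0.97) and Wdsub1 (0.96). For Tgfb1 they were Tle3, Plscr3 and Gnai2 (all 0.98), for Lifr Ly6a (0.97), Mllt3 and Gpr64, and for Lif Mkl2 (0.96), Trim45 and Cnot8. For Tgfb3 they were Hivep3 (0.96), Kctd1 and Mansc1, and for Tgfb2 Cct6a (0.93), Ercc3 and Tox4. Among the members themselves, Lif and Osmr had r = 0.94 over the 12 columns, but 0.53 over the 6 of day 6 and 0.98 over the 6 of parturition. Osmr and Il6st had 0.87 (0.72 and 0.98 by stage), and Tgfb2 and Lifr −0.70 (−0.53 and −0.83). Lif and Tgfb1 turned from −0.79 on day 6 to 0.96 at parturition. Lifr and Osmr had 0.97 over the 6 columns of day 6 and 0.63 over the 6 of parturition.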

How the data were processed

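Poly(A) RNA of mammary tissue was read on a HiSeq, per the labels' protocols. The submitters' processing notes name CASAVA, TopHat and the mm9 build. The values deposited by the authors are FPKM per gene symbol; the program that made them and its annotation are not given in the sources used here. Of values of at least 1 FPKM, 66.6% to 67.6% end in a recurring decimal (33 or 67) where 3 samples are listed and at most 1.33% where 2 are. Columns with 3 samples listed are therefore the authors' means. A mean of 2 gives no recurring decimals, so columns with 2 samples listed were taken as means without such a check. The protocol in the labels gives 2 mice for a genotype. The planned limma test of per-sample values could not be used.

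Columns were scaled within a stage with factors equal to the median, over genes of at least 1 FPKM in all 6 columns, of the ratio to a gene's geometric mean. Genes of at least 1 FPKM in at least 2 columns were compared by the log2 ratio of scaled FPKM + 1 and called at 2-fold. The members, gene lists and the naming rule were chosen with earlier results of these data known. The rule names all members, up to 4 genes per list with the largest ratio of Null to AABB, 7 preset genes and the 3 genes most correlated with each member. Some genes that the rule names are not reported here. Marker lists described only by summed levels (neutrophils) or not at all (mast cells, T cells) had medians for Null against AABB at parturition of −0.15, 3.13 and 0.00. Alternatives were a pseudocount of 0.1, no filter, no scaling and upper-quartile scaling; a floor of 5 FPKM and scaling to total FPKM without milk protein genes were chosen after seeing the data. The scaling and the ratio without the added 1 were tested on simulated data with as many higher as lower changes. That setting does not cover the unbalanced differences at parturition. Python 3.11.15, numpy 2.4.6, pandas 2.3.3 and matplotlib 3.10.9 were used.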

Additional observations from a re-analysis of the deposited data

Results flagged for a closer look

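Tgfb1 in the column labelled A stood on opposite sides of AABB at the 2 stages: its log2 ratio was −1.28 on day 6 of pregnancy (12.0 against 30.4) and 1.80 at parturition (23.6 against 6.05). Both ratios are past 2-fold, and the difference between the stages was not tested, since each genotype has a single column per stage. B had ratios of −0.93 and 1.85.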

How the results depend on the processing

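Counts of members called, out of 7, are given as reported and then under the alternative, for those that moved by more than 1.5 times and for AABB comparisons without scaling. Leaving out the filter changed none of these counts. With a pseudocount of 0.1, higher calls on day 6 went from 1 to 2 in B and in A against AABB and from 0 to 1 in B and in A against Null, and lower calls in B against AABB from 0 to 1. At parturition higher calls in BB against AABB went from 2 to 4, and between stages from 3 to 5 in A and from 0 to 1 in AABB, where lower calls went from 1 to 2.

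Without scaling, higher calls on day 6 went from 1 to 2 in B and in A against AABB, from 1 to 0 in BB and in AB, and from 0 to 1 in B and in A against Null, where the lower call in A went from 1 to 0. At parturition the lower call in Null went from 1 to 0, higher calls in BB from 2 to 5, in B from 4 to 6 (adding Lifr and Tgfb3), in Null from 4 to 5 and in A from 5 to 6 (adding Lifr), and in AB from 5 to 6 (adding Tgfb2), and lower calls between stages in AABB from 1 to 2. With upper-quartile scaling, the day 6 higher calls in B and in A became 2 against AABB and 1 against Null, and the lower calls in A against Null on day 6 and in Null against AABB at parturition became 0. With columns scaled to total FPKM without milk protein genes, chosen after seeing the data, higher calls on day 6 became 3 in B and in A against AABB and 1 in each against Null, and the lower call in A against Null became 0. At parturition that scaling gave 0 lower calls in Null, 5 higher in BB and 1 higher in AB against BB, and between stages 2 higher in Null and 1 in A. With a floor of 5 FPKM, also chosen after seeing the data, the lower call in Null on day 6 became 0, because Tgfb2 was no longer compared; Lif was not compared either. For the other changes the cause was not tested. No member past 2-fold changed direction under any of these alternatives.

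Over all genes, counts moved by more than 1.5 times in 14 of 26 comparisons for higher and 15 for lower calls with a pseudocount of 0.1, 6 and 7 without scaling, 11 and 11 with total FPKM without milk protein genes, 1 and 5 with the floor, and 0 with upper-quartile scaling or no filter. For Null against AABB at parturition, 2489 higher and 1400 lower genes became 3741 and 783 without scaling. No paired analysis was possible because each genotype has a single column per stage that carries no replicate number, and leaving out single samples was not possible for the same reason. Read depth is unknown, so the error of low values such as those of Lif cannot be given.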
